A study of Mus musculus with 12 samples.

Results

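The levels of 9 genes of neutrophil granules and nutritional immunity were followed across abdominal-cavity (peritoneal) macrophages: S100a8, S100a9, Camp, Ngp, Ltf, Lcn2, Hp, Elane and Mpo. They were chosen by name, as the probes whose RefSeq transcript carries one of these symbols, and all 9 of the 9 listed were among the 22911 named genes on the array, with 10 probes between them. The mice were of the C57/BL6 strain, either wild type (WT) or knocked out for GPR15, a G protein-coupled receptor (KO), and the cells were cultured in DMEM with fetal bovine serum. Each genotype received PBS, or LPS, the bacterial cell-wall component that activates macrophages through TLR4, at 100 ng/ml for 4 h. The 4 groups, WT PBS, WT LPS, KO PBS and KO LPS, held 3 arrays each. How the macrophages were separated from other abdominal cells, and whether a replicate is a separate mouse, the labels do not say, so p-values measure only the spread between these samples, which may be technical. Of the 9 genes, 7 passed the filter on dim probes (every array of some group well above background) and were tested among 13283 genes, while Ltf and Ngp did not.

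Neutrophils store these proteins in granules or in the cytosol and release them where microbes invade, and macrophages make several of them after stimulation. Nutritional immunity is the withholding of metals from microbes. Lipocalin-2 (Lcn2) captures the iron-carrying siderophores that bacteria secrete, lactoferrin (Ltf) binds iron itself, haptoglobin (Hp) captures free hemoglobin, and S100a8 with S100a9 forms calprotectin, which binds zinc and manganese. Camp encodes the cathelicidin antimicrobial peptide and Ngp neutrophilic granule protein, both stored in granules with lactoferrin, whereas neutrophil elastase (Elane) and myeloperoxidase (Mpo) belong to the azurophil granules laid down early in granulocyte development.

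The upstream sequences of 3 genes are printed because the results turn on them: Lcn2 had the largest LPS response of the 7 tested genes, and S100a8 and S100a9, which lie side by side in the genome and encode partner proteins, differed in pattern. Each is the 250 bases before the annotated start, 5′ to 3′ on the gene's own strand, from RefSeq on build GRCm38.p6, with motif matches in capitals. Lcn2 is at chr2:32387740-32387989 on the minus strand, S100a8 at chr3:90668821-90669070 on the plus strand and S100a9 at chr3:90695722-90695971 on the minus strand.
Lcn2: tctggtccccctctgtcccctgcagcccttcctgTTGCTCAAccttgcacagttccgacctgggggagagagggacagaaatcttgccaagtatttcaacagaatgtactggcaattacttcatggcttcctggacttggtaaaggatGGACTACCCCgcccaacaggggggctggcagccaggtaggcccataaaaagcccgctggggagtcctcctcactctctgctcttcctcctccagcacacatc
S100a8: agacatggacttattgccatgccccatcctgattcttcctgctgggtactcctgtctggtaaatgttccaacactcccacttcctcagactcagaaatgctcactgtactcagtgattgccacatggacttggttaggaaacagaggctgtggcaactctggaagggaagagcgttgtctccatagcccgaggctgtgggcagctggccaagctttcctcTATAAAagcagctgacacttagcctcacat
S100a9: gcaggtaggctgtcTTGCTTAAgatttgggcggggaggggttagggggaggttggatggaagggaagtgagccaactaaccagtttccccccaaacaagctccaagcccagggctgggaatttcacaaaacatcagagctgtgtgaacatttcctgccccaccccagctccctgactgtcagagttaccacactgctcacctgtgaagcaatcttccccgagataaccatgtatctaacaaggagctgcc

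The 4 motifs named here were searched on both strands. The C/EBP pattern TTNNGCAA matched once upstream of Lcn2, with the match starting 216 bases before the start on the opposite strand, and once upstream of S100a9, at 236 bases on the opposite strand. It occurs in 9.56% of 32851 such promoters. The NF-kB pattern, GGG and CC with any 5 bases between them, which occurs in 45.8% of them, matched upstream of Lcn2 at 102 bases on the opposite strand. The letters TATAAA, found in 12.4%, matched upstream of S100a8 at 30 bases on the gene's strand. The STAT pattern TTCNNNGAA, found in 7.02%, is not in these 3 windows. None of the motif matches in these 3 windows overlapped another, and a match describes letters, not binding. Hp had no sequence entry, so 8 of the 9 genes were searched. Outside the 3 printed windows, the C/EBP pattern also matched upstream of Ngp and Ltf, and the NF-kB pattern upstream of Ltf and Mpo. None of the 4 patterns matched upstream of Camp or Elane. The matches are thus not particular to the genes printed.

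Across the 12 arrays, 48.8% to 57.1% of spots were well above background and 0 were saturated. The arrays lay on 2 slides: all WT arrays shared slide 1 with KO PBS replicates 1 and 2, and the third KO PBS replicate shared slide 2 with all KO LPS arrays. LPS in WT was thus compared within slide 1, but KO and WT after LPS lay on different slides, and slide and genotype there cannot be told apart except through the KO PBS arrays. WT replicate 3 stood apart in PBS and in LPS, with the erythroid genes Hba-a1, Hbb-bt and Alas2 lower than the mean of replicates 1 and 2 by 1.71 to 1.91 on the log2 scale. Gpr15 was well above background on 0 of 6 WT and 0 of 6 KO arrays, so its probe checks no label. Xist was well above background on 6 of 6 WT and 0 of 6 KO arrays, and Y-linked Ddx3y and Kdm5d on 0 of 6 WT and 6 of 6 KO arrays. Genotype and sex of the cells therefore cannot be told apart in any KO against WT difference.

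All 10 macrophage markers were measured, and Adgre1 (F4/80), a defining one, lay between 5.34 and 5.94 on the 12 arrays. Levels throughout are log2 of the processed signal minus the array's 75th percentile, so 0 is the signal of the 75th-percentile spot. Of 15 neutrophil markers, 10 were tested, Cxcr2, Cxcr1 and Mrgpra2a were not well above background on any array, and Ly6g had no named probe. The summed level of the 10, in multiples of the 75th percentile, was 188 to 202 in WT PBS, 231 to 259 in WT LPS, 184 to 220 in KO PBS and 248 to 254 in KO LPS, and the ranges of KO and WT overlapped in each condition. Most of that sum is Csf3r, the G-CSF receptor, whose level was 7.28 to 7.64. The mean log2 level of the 10, in which each gene counts alike, was -0.29 to -0.10 in WT PBS and 0.05 to 0.09 in KO PBS, and -0.19 to 0.16 in WT LPS and 0.19 to 0.36 in KO LPS, so by that measure KO lay above WT without overlap. Some of the 10 were not measured on every array: Cd177 was well above background on 1 of 3 WT PBS, 0 of 3 WT LPS and all 6 KO arrays, and Retnlg on 3 of 6 WT and all 6 KO arrays. Both enter that mean with WT values that were in part not well above background. The lack of overlap therefore cannot be read as a difference of the 10 as a set. Between KO and WT, Cd177 alone was called in PBS, and Cd177 (at least 1.66-fold, against a WT group not well above background) and Padi4 (0.47 higher in KO) after LPS. In bulk RNA, more cells of a type and more RNA per cell cannot be told apart, and the part of neutrophils in the results below was not tested.

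Lcn2, the siderophore trap, had the strongest LPS response of the 7 tested genes. Its level was 0.80, 0.95 and -0.46 on the WT PBS arrays and 5.01, 5.16 and 4.15 on the WT LPS arrays. It was 1.34, 1.11 and 1.30 in KO PBS and 4.28, 4.37 and 4.28 in KO LPS. Within each genotype every LPS array was far above every PBS array, and replicate 3 was the lowest WT array in both conditions. LPS raised Lcn2 by 4.35 ± 0.32 (SE, n = 3 per group; 20.4-fold; limma adjusted p = 2.4e-07) in WT and by 3.06 ± 0.32 (8.33-fold, adjusted p = 5.71e-06) in KO. The second Lcn2 probe moved by 4.38 in WT and 3.40 in KO.

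The LPS response of Lcn2 was smaller in KO by 1.29 ± 0.46 on the log2 scale, with an unadjusted p of 0.0162 and an adjusted p of 0.146 for the interaction. The adjusted p ranged from 7.56e-05 to 0.359 over 22 alternatives and fell below 0.05 under 2 of them: the replicate block (adjusted p = 0.000399) and the fit without WT replicate 3 (adjusted p = 7.56e-05, response smaller by 1.16). In the levels behind it, KO minus WT was 0.82 ± 0.32 in PBS (adjusted p = 0.113) and -0.47 ± 0.32 after LPS (adjusted p = 0.271). Every KO PBS array was above every WT PBS array, whereas after LPS the KO arrays lay between WT replicate 3 and WT replicates 1 and 2. Without WT replicate 3 the differences were 0.38 in PBS (adjusted p = 0.00513) and -0.78 after LPS (adjusted p = 4.84e-05). The second probe gave 0.95 in PBS and -0.03 after LPS.

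**Figure D1:**
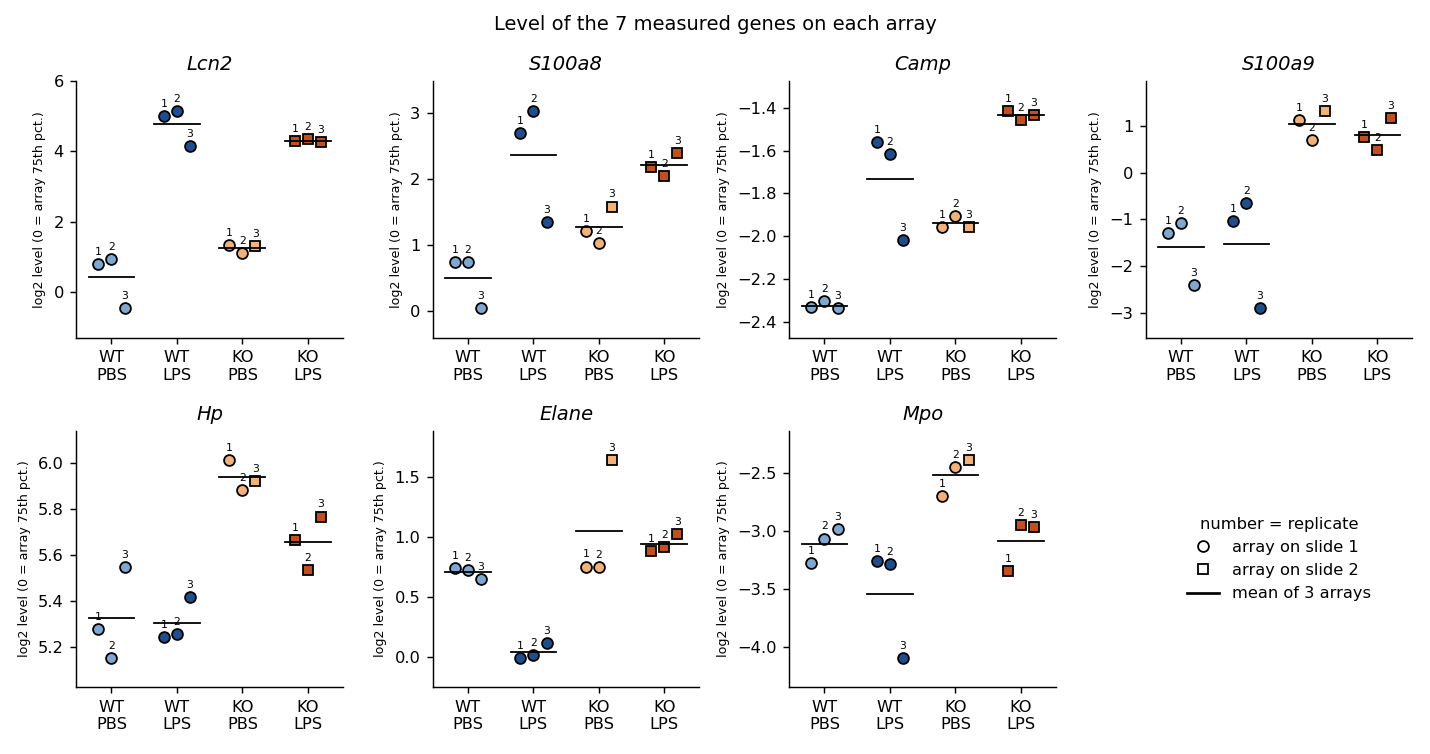
Level of each of the 7 tested genes on each of the 12 arrays (y axis: log2 processed signal minus the array's 75th percentile), by group on the x axis. Circles are arrays on slide 1, squares arrays on slide 2, numbers the replicate and bars the mean of 3 arrays. S100a9 sits between 0.49 and 1.32 on all KO arrays and between -2.90 and -0.64 on all WT arrays, and WT replicate 3 is the lowest WT array for Lcn2, S100a8 and S100a9.

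S100a8, the smaller subunit of calprotectin, rose with LPS as Lcn2 did. Its level was 0.73, 0.73 and 0.04 in WT PBS and 2.69, 3.03 and 1.34 in WT LPS. It was 1.21, 1.03 and 1.58 in KO PBS and 2.18, 2.04 and 2.38 in KO LPS. The LPS and PBS arrays did not overlap in either genotype, the KO PBS arrays were all above the WT PBS arrays, and the KO LPS arrays fell within the WT LPS range. LPS raised S100a8 by 1.85 ± 0.35 (3.61-fold, adjusted p = 0.000577) in WT. In KO the rise was 0.93 ± 0.35 (1.90-fold, adjusted p = 0.0351), but this call was lost in 5 of the 6 fits that left out 1 array and, with slide as a term, the rise was 0.62 (adjusted p = 0.339).

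KO minus WT for S100a8 was 0.77 ± 0.35 in PBS (adjusted p = 0.165) and -0.16 ± 0.35 after LPS (adjusted p = 0.749). The second value rests on WT replicate 3 and was -0.66 with both WT replicate 3 arrays left out (adjusted p = 0.00614). The LPS response was smaller in KO by 0.93 ± 0.50 (adjusted p = 0.309), and by 1.20 without WT replicate 3 (adjusted p = 0.00591). With the replicate block its adjusted p was 0.0343.

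S100a9, the partner of S100a8 in calprotectin and its neighbour in the genome, separated the genotypes instead. Its level was -1.29, -1.07 and -2.41 in WT PBS and -1.04, -0.64 and -2.90 in WT LPS. In KO it was 1.12, 0.70 and 1.32 in PBS and 0.76, 0.49 and 1.16 after LPS. All 6 KO arrays were above all 6 WT arrays, and within each genotype the PBS and LPS arrays overlapped. KO was above WT by 2.64 ± 0.50 (6.23-fold, adjusted p = 0.00562) in PBS and by 2.33 ± 0.50 (5.04-fold, adjusted p = 0.00436) after LPS. With WT replicate 3 left out these were 2.23 and 1.65, both still called.

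Allowing for the slide changed these 2 values differently. In PBS the difference was 2.50 both with slide as a term, where it was called, and on slide 1 alone, where the adjusted p was 0.0563. After LPS it was 1.92 with slide as a term (adjusted p = 0.273). LPS minus PBS for S100a9 was 0.06 ± 0.50 (adjusted p = 0.92) in WT and -0.24 ± 0.50 (adjusted p = 0.684) in KO. The WT value ranged from -0.38 to 0.75 as single arrays were left out, so its direction changed with the array left out.

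Both calprotectin genes were low on WT replicate 3. Against the mean of replicates 1 and 2, S100a8 was 0.69 lower in PBS and 1.52 lower after LPS, and S100a9 was 1.23 and 2.05 lower. Of all 13283 genes, 0.151% lay at least as far below as S100a9 did on the LPS array. Of the 10 neutrophil markers, 6 were well above background on all WT arrays. Among them Fpr1, a formyl peptide receptor, was also lower, by 1.10 in PBS and 0.83 after LPS, while Csf3r was 0.01 and 0.02 lower and Mmp9 0.19 and 0.16 higher. Trem1 was 0.73 lower in PBS and 0.37 higher after LPS, Padi4 0.39 lower and 0.20 higher, and Il1r2 0.01 lower and 0.22 higher. The part of cell makeup in the low calprotectin values was not tested.

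Camp, the cathelicidin precursor, rose modestly with LPS in both genotypes. Its level was -2.33, -2.30 and -2.33 in WT PBS and -1.56, -1.61 and -2.02 in WT LPS. It was -1.95, -1.91 and -1.96 in KO PBS and -1.41, -1.46 and -1.43 in KO LPS. The 4 groups were ordered WT PBS, KO PBS, WT LPS, KO LPS by mean, and only KO PBS and WT LPS overlapped. LPS raised Camp by 0.59 ± 0.11 (1.51-fold, adjusted p = 0.000522) in WT and by 0.50 ± 0.11 (1.42-fold, adjusted p = 0.00172) in KO, and both calls held under all 17 alternatives. KO was above WT by 0.38 ± 0.11 in PBS (adjusted p = 0.0406) and by 0.30 ± 0.11 after LPS (adjusted p = 0.0521). The PBS call was lost under 12 of 17 alternatives, among them each fit without 1 array and the replicate block (adjusted p = 0.0818).

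Hp, the hemoglobin-capturing protein, was higher in KO. Its level was 5.28, 5.15 and 5.54 in WT PBS, 5.24, 5.26 and 5.41 in WT LPS, 6.01, 5.88 and 5.92 in KO PBS and 5.66, 5.53 and 5.77 in KO LPS. Every KO PBS array was above every other array, and the lowest KO LPS array was only just below the highest WT PBS array. KO was above WT by 0.61 ± 0.09 (1.53-fold, adjusted p = 0.00161) in PBS, a call that held under all 17 alternatives and was 0.62 within slide 1. After LPS the difference was 0.35 ± 0.09 (1.27-fold, adjusted p = 0.0131), with 0.38 and an adjusted p of 0.245 when slide was a term, and an adjusted p of 0.0574 without KO LPS replicate 3.

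LPS lowered Hp in KO by 0.28 ± 0.09 on the log2 scale (adjusted p = 0.0189; 0.27 with an adjusted p of 0.133 with slide as a term). In WT the change was -0.02 ± 0.09 (adjusted p = 0.872); it was -0.28 after quantile normalization (adjusted p = 0.0348) and -0.29 after normexp background correction (adjusted p = 0.0236). The difference between the responses was -0.26 ± 0.13 (adjusted p = 0.283).

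Elane, the elastase of azurophil granules, fell with LPS in WT. Its level was 0.75, 0.72 and 0.65 in WT PBS and 0.00, 0.02 and 0.12 in WT LPS, with no overlap. It was 0.76, 0.75 and 1.64 in KO PBS and 0.89, 0.92 and 1.02 in KO LPS. The KO PBS array that reached 1.64 was replicate 3, the one on slide 2, and it stood 0.88 above the mean of the 2 KO PBS arrays on slide 1. LPS lowered Elane by 0.66 ± 0.18 on the log2 scale (adjusted p = 0.0067) in WT, a call that held under all 17 alternatives.

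The remaining values of Elane moved with the fit, and the shifts rested on KO PBS replicate 3. It was the only KO PBS array on slide 2, so the slide and a deviation of that array cannot be told apart. LPS minus PBS in KO was -0.11 ± 0.18 over all arrays (adjusted p = 0.621), -0.69 on slide 2 alone (adjusted p = 1.0e-04), and 0.19 without KO PBS replicate 3 (adjusted p = 0.0146). KO minus WT after LPS was 0.90 ± 0.18 (adjusted p = 0.00317) over all arrays and 0.01 with slide as a term (adjusted p = 0.956). In PBS it was 0.34 ± 0.18 (adjusted p = 0.231), and 0.05 within slide 1. The interaction was 0.56 ± 0.26 (adjusted p = 0.244), -0.03 with slide as a term, and 0.85 without KO PBS replicate 3 (adjusted p = 8.3e-05).

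Mpo, the enzyme that makes hypochlorous acid, had a signal of 28.7 to 110 across arrays, where the lowest signal well above background was 18.4 to 36.8. Its level was -3.28, -3.06 and -2.98 in WT PBS, -3.25, -3.28 and -4.09 in WT LPS, -2.70, -2.45 and -2.39 in KO PBS and -3.34, -2.94 and -2.96 in KO LPS. WT LPS replicate 3 was not well above background. The KO PBS arrays were the highest, and the other 3 groups overlapped one another. LPS lowered Mpo in KO by 0.57 ± 0.22 on the log2 scale (adjusted p = 0.037), a call lost in 4 of the 6 fits that left out 1 array. In WT the value was -0.44 ± 0.22 (adjusted p = 0.101). KO minus WT was 0.59 ± 0.22 in PBS (adjusted p = 0.094) and 0.46 ± 0.22 after LPS (adjusted p = 0.115).

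Ltf and Ngp, which mark the specific granules of maturing neutrophils, were well above background on 0 of 12 arrays. Their signals were 4.75 to 11.8 for Ltf and 4.51 to 8.35 for Ngp, each with 1 probe. These signals lie below the lowest signal well above background on any array, 18.4, and no difference between groups is given for them.

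Over the 7 tested genes, LPS called 4 in WT (Lcn2, S100a8 and Camp higher, Elane lower), beside 64.7% of all tested genes (33.7% higher, 31% lower), and 5 in KO (the same 3 higher, Hp and Mpo lower), beside 67% (35.1% higher, 32% lower). The groups of 3 arrays did not overlap for 4 of 7 in WT and 5 of 7 in KO, beside 69.4% and 72.1% of all genes. The shares among the 7 are near those backgrounds. Their median change was 0.06 in WT and -0.11 in KO, against 0.03 and 0.04 over all genes.

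In PBS, KO was above WT with no overlap for 7 of 7, where 30.5% of all genes did not overlap in either direction, and the median difference was 0.61 against 0.01 over all genes. For Elane the groups barely separated, with the lowest KO PBS array at 0.754 and the highest WT PBS array at 0.745. Of the 7, 3 were called (S100a9, Hp and Camp), all higher in KO, beside 14.1% of all genes called and 8.06% called higher. With slide 1 alone the count was 1, beside 1087 of all 13283 genes. Without WT replicate 3 it was 6, beside 3293 of all genes, where the fit to all arrays called 1874. Markers of other cells also differed in KO PBS: 4 of 8 B cell markers, 2 of 7 T cell, 2 of 4 dendritic cell and 1 of 7 mast cell markers were lower, and 2 of 10 macrophage, 2 of 10 large peritoneal macrophage and 2 of 7 monocyte markers were higher. Of all genes, 6.05% were lower and 8.06% higher there. Of 6 immature granulocyte markers 1, Ctsg, was higher, and of 6 eosinophil and 3 erythroid markers 0 were called. The part of these cells in the difference was not tested. After LPS 3 of 7 were called higher in KO (S100a9, Hp and Elane), beside 39.5% called and 20% called higher, 4 of 7 did not overlap beside 58.4%, and the median was 0.35 against -0.01. There 4 of 8 B cell, 3 of 7 monocyte and 3 of 7 T cell markers were lower in KO, beside 19.5% of all genes. So were 3 of 7 mast cell and 2 of 4 dendritic cell markers. Higher in KO were 1 monocyte marker (Chil3), 1 T cell marker (Cd4) and 2 of 10 large peritoneal macrophage markers. Macrophage markers were split, 3 higher and 3 lower. Of 6 eosinophil and 6 immature granulocyte markers 1 each was higher, and of 3 erythroid markers 0 were called. Their part after LPS was not tested.

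With slide as a term, limma called 0 of the 7 after LPS, with 0 at an unadjusted p under 0.05, while 776 of all genes were called in place of 5242. Scaling to the array median in place of the 75th percentile put the median of all genes at -0.11 after LPS, where it had been -0.01, and turned the split of called genes from 2653 higher and 2589 lower to 1783 and 3861. In PBS the split went from 1070 and 804 to 616 and 1098. For the interaction limma called 0 of 7, with 1 (Lcn2) at an unadjusted p under 0.05, beside 4.31% of all genes called. The 4 comparisons share arrays, so their values for a gene are not independent of each other.

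**Figure D2:**
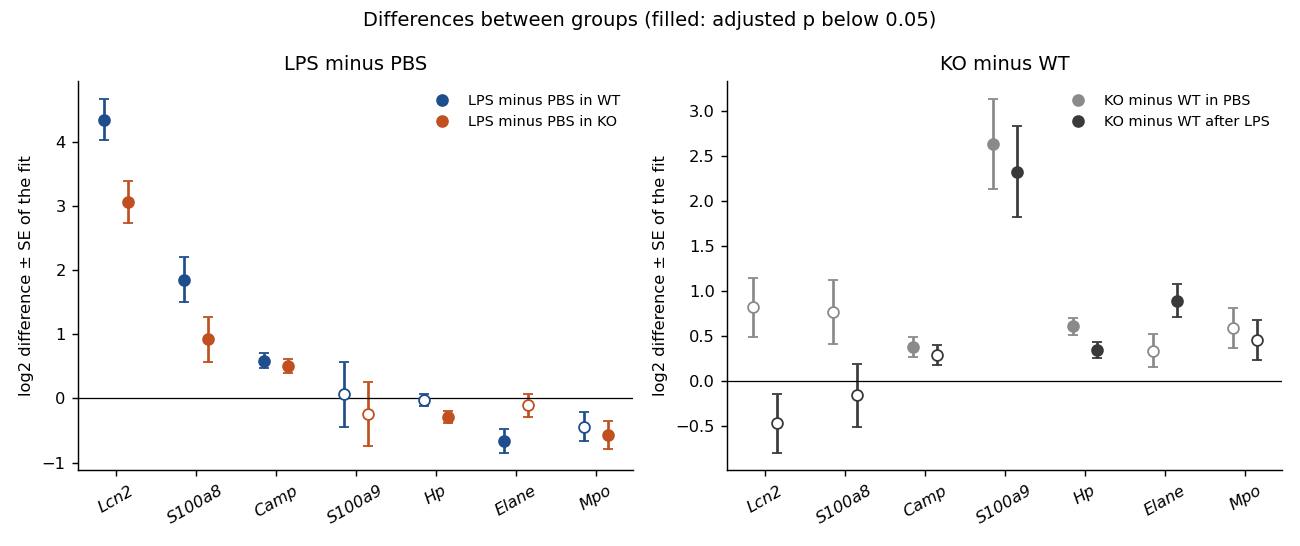
Log2 difference ± SE of the fit for the 7 tested genes, LPS minus PBS on the left (WT and KO) and KO minus WT on the right (PBS and after LPS), with 3 arrays per group. Filled points have an adjusted p below 0.05. Lcn2 has the largest LPS differences, 4.35 and 3.06, and S100a9 the largest genotype differences, 2.64 and 2.33.

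**Figure D3:**
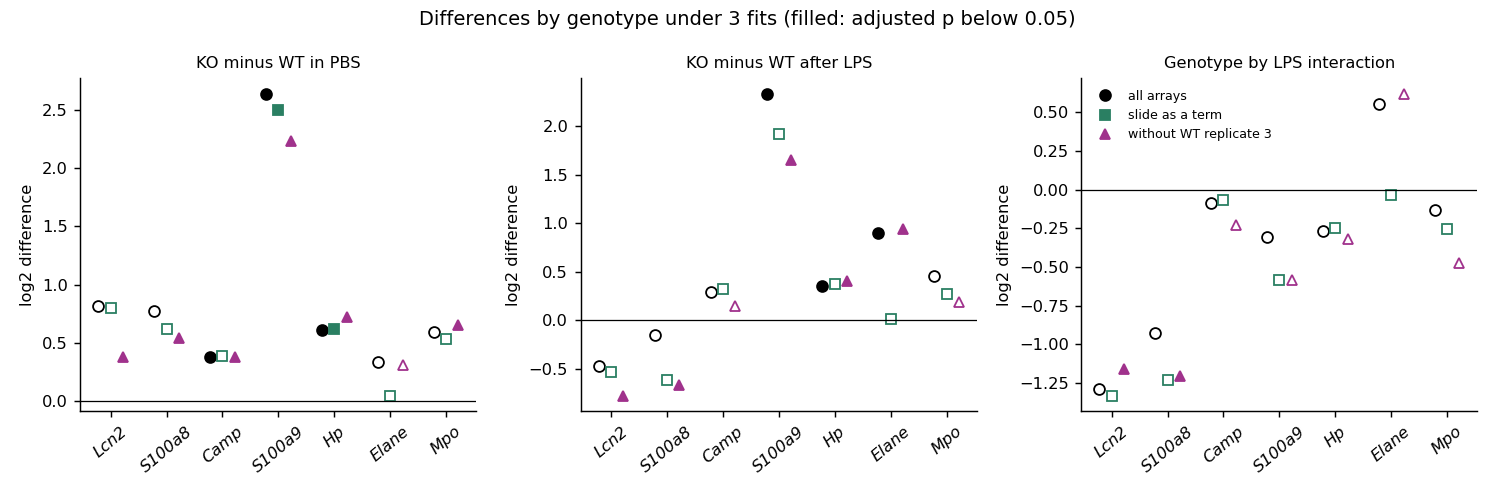
Genotype differences and the interaction (y axes: log2 difference) for the 7 tested genes under 3 fits: all arrays (circles), slide as a term (squares) and without WT replicate 3 (triangles), filled where the adjusted p is below 0.05. Elane after LPS goes from 0.90 to 0.01 with slide as a term, and S100a8 after LPS goes from -0.16 to -0.66 without WT replicate 3.

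The counts for related gene lists are read against the shares of all tested genes called higher and lower: 33.7% and 31% with LPS in WT, 35.1% and 32% with LPS in KO, and, between genotypes, 8.06% and 6.05% in PBS and 20% and 19.5% after LPS. Among other neutrophil granule proteins, 27 of 33 listed were tested, and in PBS 10 were higher in KO and 0 lower, with a median of 0.20 against 0.01 over all genes. Of the 10, 7 were well above background on all 6 arrays compared, and Cd177, Ptx3 and Wfdc21 were not. Ptx3 was well above background on 0 of 3 WT PBS and 0 of 3 KO PBS arrays and passed the filter only through KO LPS. Cd177 and Wfdc21 passed it only through the KO groups, where they were higher, so these 3 calls are not counted as support. Chil3, a chitinase-like lectin of macrophages and neutrophils, was 1.92 ± 0.19 higher (adjusted p = 0.000121), Ctsg, the cathepsin G that accompanies elastase, 1.10 ± 0.20 (adjusted p = 0.00372) and Anxa1, an anti-inflammatory annexin, 1.06 ± 0.13 (adjusted p = 0.00033). After LPS 9 were higher and 1 lower, with Chil3 at 1.82, Ctsg at 1.13 and Stfa2, a cysteine protease inhibitor, at -0.97. Of those 9, 7 were well above background on all 6 arrays compared, and Cd177 and Wfdc21 were not. Wfdc21, named here after its values were seen, was well above background on 6 of 6 KO and 0 of 6 WT arrays. With LPS 9 rose and 10 fell in WT, and 5 rose and 10 fell in KO. Well above background on all 6 arrays compared were 4 of the 9 and 9 of the 10 in WT, and 1 of the 5 and 9 of the 10 in KO. Among those that rose, Chil1 and Ptx3 passed the filter only through KO LPS, and Wfdc21, which rose in WT, only through the KO groups. Chil1 and Wfdc21 were well above background on 0 of 3 WT PBS and 0 of 3 WT LPS arrays, so their calls in WT do not measure a rise. Stfa3, a stefin, rose by 1.82 in WT and 1.56 in KO, while the proton channel Hvcn1 fell by 1.31 and 1.28 and Arg1 fell by 1.51 in WT. The WT PBS arrays spread from 2.33 to 4.16 for Stfa3 and from 3.54 to 5.24 for Arg1, with replicate 3 lowest for both. Prtn3, proteinase 3 and the neighbour of Elane, fell by 0.37 ± 0.13 in WT (adjusted p = 0.029) and by 0.74 ± 0.13 in KO (adjusted p = 0.000417).

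Of 15 other S100 genes, 9 were tested. In KO against WT 4 were higher in PBS and 6 after LPS, with 0 lower in either, and the medians were 0.52 and 0.38. Of the 6 after LPS, 5 were well above background on all 6 arrays compared. The other, S100a2, passed the filter only through KO LPS. With S100a2, which was well above background on 0 of 3 WT PBS arrays, held at its bound, the PBS median was 0.32. S100a4 and S100a6, calcium-binding proteins of motile cells, were higher in KO by 0.98 ± 0.13 and 0.72 ± 0.11 in PBS and by 0.91 and 1.06 after LPS, and S100a1 by 0.52 in PBS. S100a16 was 1.28 higher after LPS, and 0.30 with slide as a term. With LPS, 1 rose and 4 fell in WT, and 1 rose and 6 fell in KO. S100a6 fell by 1.43 in WT and 1.09 in KO, S100a4 fell by 0.95 and 1.02, S100a1 fell by 0.61 in KO, and S100a3 rose by 0.58 in WT.

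Genes that handle iron, heme, zinc and manganese changed with LPS in both directions: of 31 tested of 34 listed, 12 rose and 11 fell in WT, and 13 rose and 11 fell in KO. Of these, 10 and 9 in WT and 11 and 10 in KO were well above background on all 6 arrays compared. The metallothionein Mt2, which binds zinc, rose by 2.02 in WT and 1.83 in KO, the zinc and iron importer Slc39a14 by 1.91 and 2.20, and the transferrin receptor Tfrc by 1.79 in WT. Bdh2, an enzyme proposed to make a mammalian siderophore, fell by 2.02 in KO (-1.71 with an adjusted p of 0.106 with slide as a term). Hamp and Slc40a1, named after their values were seen, encode hepcidin and the iron exporter ferroportin, which hepcidin degrades. Hamp was well above background on 0 of 6 PBS and 6 of 6 LPS arrays. Slc40a1 was well above background on 6 of 6 PBS arrays, at -1.14 to 0.25, and on 3 of 6 LPS arrays, at -4.89 to -3.11. Between genotypes 3 of the 31 were higher in KO in PBS, all well above background on all 6 arrays compared. The 1 called lower there was Hamp, which was well above background on 0 of those 6 arrays, so no difference is read from it. After LPS 4 were higher and 1 lower, all well above background on all 6 arrays compared. Steap3, an iron reductase, was 0.41 higher in PBS and 0.60 after LPS, Slc11a2 and Lrp1 0.39 and 0.34 higher in PBS, and Flvcr1 and Slc30a1 0.40 and 0.37 higher after LPS.

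Of the acute-phase proteins, the class to which haptoglobin belongs in the liver, 10 of 18 listed were tested: 7 rose and 0 fell in WT, and 5 rose and 2 fell in KO. Serum amyloid Saa2 rose by 1.94 ± 0.09 in WT and 0.95 ± 0.09 in KO, Serpina1a by 0.83 and 0.80, and Orm1 by 0.54 in WT, while Orm3 fell by 0.63 in KO. KO was higher for 3 in PBS (Serpina1a 0.58, Itih4 0.42 and Saa2 0.36). After LPS KO was higher for 2 and lower for 5, with Orm2 at -0.74, Saa2 at -0.63 and Itih4 at 0.60. For the interaction 2 of the 10, Saa2 and Cfb, were called, both with a smaller LPS response in KO, beside 4.31% of all genes called.

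Of the receptors for these proteins and for formyl peptides, 8 of 11 were tested. With LPS the formyl peptide receptor Fpr1 rose by 1.53 in WT and 1.32 in KO and Fpr2 by 0.83 in WT, while Ly96, the TLR4 partner MD-2, fell by 1.33 and 1.10. In all, 4 rose and 2 fell in WT, and 3 rose and 2 fell in KO, where Cd14 rose by 0.48. In PBS only Fpr2 of the 8 was called between genotypes (0.71 higher in KO). After LPS Fpr2 was 0.34 and Tlr4 0.51 higher in KO, and KO minus WT for Emb, embigin, was -0.62.

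Of 14 transcription factors of granule and acute-phase genes, 13 were tested, and 7 rose with LPS in each genotype while 2 fell in WT and 3 in KO. Nfkbiz, an NF-kB cofactor needed for Lcn2 induction, rose by 2.56 in WT and 2.75 in KO, and Cebpd by 1.88 and 1.43. Cebpa, a factor of granulocyte commitment, fell by 2.19 and 2.25. KO minus WT in PBS was 0.44 for Cebpd, -0.51 for Myb, -0.28 for Stat3 and -0.24 for Irf8, which made 1 higher and 3 lower. After LPS it was -0.50 for Irf8 and -0.41 for Stat3, which made 0 higher and 2 lower. Allowing for the slide changed the calls among the named genes of the 6 lists: of 17 named for KO against WT after LPS, 2 (Chil3 and S100a6) were still called with slide as a term, and of 16 named in PBS, 11 were still called on slide 1 alone.

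**Figure D4:**
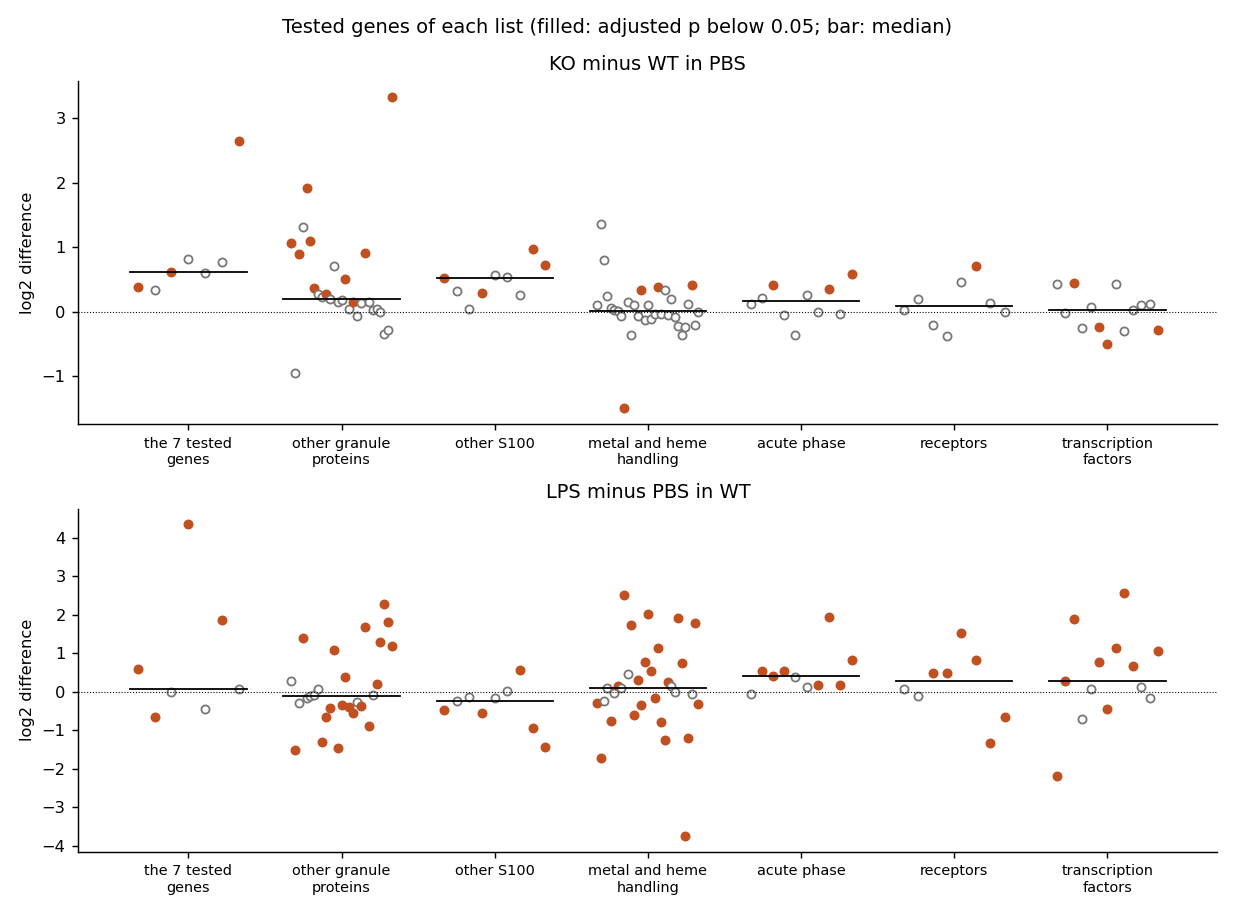
Log2 difference of every tested gene in the 7 and in each of 6 related lists, KO minus WT in PBS above and LPS minus PBS in WT below. Filled points have an adjusted p below 0.05 and bars are list medians. In PBS the median is 0.61 for the 7, 0.20 for other granule proteins and 0.52 for other S100 genes (0.32 with S100a2 at its bound), and -0.11 and -0.24 for these 2 lists with LPS in WT.

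As a description over the 12 arrays, which share groups and slides, levels of S100a8 tracked Lcn2 (Pearson r = 0.91) and Camp (0.88) more closely than S100a9 (0.36). S100a9 tracked Mpo (0.71) and Hp (0.70). The genes most like each in pattern by Pearson r over the 12 arrays were Fas, Nup54 and Rpf2 for Lcn2 (all 0.99), Rala, Prdx3 and Rnd3 for S100a8 (0.96 to 0.97), and Ugt1a6b, Lyve1 and Arpc5 for S100a9 (0.95 to 0.96). They were Pofut1, Ikbke and Txn1 for Camp (0.96 to 0.97), Tnfsfm13, Fabp3 and Smpdl3a for Hp (0.97 to 0.98), Aldh3a1, Ostf1 and Wdcp for Elane (0.98 to 0.99), and Trim16, Lrrc57 and Etfrf1 for Mpo (0.90 to 0.95).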

How the data were processed

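RNA of 12 samples was hybridised to single-colour arrays; per the labels' protocols 0.1 µg of total RNA was labelled with Cy3. Each deposited file gives, per its header, a background-corrected processed signal intensity for every spot of 1 array, with quality marks. It was made with Agilent Feature Extraction 11.5.1.1, according to the submitters' processing notes. Levels are log2 processed signal less the 75th percentile of that array. Probes were named through a RefSeq table of GRCm38.p6, which named 32994 of 56605, with 22911 symbols. Kept were the 28827 probes for which every array of some group was well above background, and the brightest kept probe stood for the gene, Lcn2 included.

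A model with 4 group means was fitted with limma 3.58.1 (R 4.3.3) to the 12 arrays together, with a mean-variance trend, two-sided tests, Benjamini-Hochberg adjustment over 13283 genes and a threshold of 0.05. Precision is limited by the number of arrays. Steps were tested on simulated data. The members and lists were chosen with earlier results of these data known. From each list, up to 3 called genes per comparison with the largest change among those well above background on all 6 arrays compared were named (12 arrays for the interaction), and the 3 genes most alike in pattern. Genes named outside that rule are the list members named as neighbours or after their values were seen, and cell markers.

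Residuals of equal replicate numbers correlated at 0.105, 0.371 and 0.481 between WT PBS and WT LPS. By the rule of a correlation over 0.1 in every pair the numbers pair the WT samples. However, WT PBS replicate 1 correlated best with a WT LPS array of another number, so the pairing is uncertain. Nothing in the labels says what a number marks. In KO equal numbers correlated at 0.04, 0.113 and 0.081, each the best match of its KO PBS array. Alternatives were quantile and median scaling, normexp with offset 50 (on the median signal, as no mean signal column was used), no or a stricter filter, all probes averaged, no trend, the replicate block, slide as a term or alone, and each array left out. Leaving out both WT replicate 3 arrays was added after seeing the data.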

Additional observations from a re-analysis of the deposited data

Results flagged for a closer look

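No one of the 7 tested genes differed in its LPS response between KO and WT past the threshold, where 4.31% of all genes were called. By the limma interaction test 3 genes of the related lists did: 2 of 10 acute-phase proteins and 1 of 27 other granule proteins. In the other lists 0 of 9 S100 genes, 0 of 31 metal and heme genes, 0 of 8 receptors and 0 of 13 transcription factors were called. The response in KO minus that in WT was -0.99 for Saa2 (adjusted p = 0.000749), -0.97 for Stfa2 (adjusted p = 0.0447) and -0.42 for Cfb (adjusted p = 0.0301). The Stfa2 and Cfb calls were lost with quantile normalization, median scaling, normexp, no filter, no trend and slide as a term. Groups of 3 arrays were too small for a test of single far-off samples.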

How the results depend on the processing

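The count of the 7 genes called for LPS in WT was 4 in every fit that left out 1 array. For LPS in KO it was 3 without a filter or with slide as a term, 6 on slide 2 alone, and 3 to 5 without 1 array (main count 5). For KO against WT in PBS it was 1 on slide 1 alone and 6 without WT replicate 3, and 2 in each fit without 1 array (main 3), and after LPS it was 0 with slide as a term, 5 without WT replicate 3, and 2 to 4 without 1 array (main 3). For the interaction it was 2 with the replicate block, 2 without WT replicate 3 and 0 to 1 without 1 array (main 0). The calls over all 13283 genes moved too. Without WT replicate 3 they were 3293 in PBS (main 1874) and 5931 after LPS (main 5242), and on slide 1 alone 1087 in PBS. For the interaction they were 1154 without WT replicate 3 and 1006 with the replicate block (main 573). The replicate block otherwise lost only the Camp difference in PBS. Reversed values of WT Hp with LPS were 0.0103 with median scaling and 0.0357 without WT replicate 3, and the Elane interaction was -0.0324 with slide as a term. Without 1 array the LPS change ranged from -0.38 to 0.75 (S100a9, WT), -0.105 to 0.0909 (Hp, WT) and -0.25 to 0.19 (Elane, KO), the KO difference after LPS from -0.66 to 0.18 (S100a8), and the interaction from -0.99 to 0.14 (S100a9) and -0.407 to 0.0113 (Mpo). Over all alternatives, member differences that were called kept direction and call 217 times and lost the call 34 times. The cause of these shifts was not tested. Signal over background limits Mpo, Ltf and Ngp.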
